A study of Mus musculus with 4 samples.

Results

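Rab GTPases are small switch proteins that mark the membranes of the secretory and endocytic pathways. Every probe set whose single gene symbol was Rab followed by a number, with or without a letter and a further digit, was taken as a member, which gave 95 probe sets for 50 genes, of 22690 probe sets for 12394 genes in the table. The members were described in YAMC cells, a conditionally immortalised epithelial line from the colon of young adult mice. RNA was taken from untreated cells and from cells given conditioned medium of Lactobacillus GG (LGG), a probiotic bacterium, for 16 h. Each group has 2 of the 4 mouse 430A arrays, and the titles give 2 dates, each shared by an untreated and an LGG array and called date 1 and date 2. What they mark is not given. Unconditioned or acidified medium was not analysed here, so effects of bacterial products and of the medium itself cannot be told apart. No label states that the arrays stem from separate cultures, so p-values measure only the spread between these arrays, which may be technical.

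A Rab protein cycles between a GDP-bound form held in the cytosol by a GDP dissociation inhibitor and a GTP-bound form on a membrane, where it recruits effectors such as tethers and motors. Exchange factors load GTP and GTPase-activating proteins end the active state, while a geranylgeranyl transferase adds the lipid anchors. In epithelial cells these switches steer cargo through the Golgi apparatus to the cell surface, sort internalised receptors and return them from recycling endosomes. The genes were grouped by the step they are best known for: 21 secretory, 12 endocytic, 8 recycling and 9 others. Many Rab proteins act at several steps, so the groups are a convention.

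The values were linear intensities with trimmed means of 500.1 to 513.5 per array. The number of arrays limits the precision, and levels of different probe sets were not compared. Log2 changes were taken on log2(intensity + 25.2), a scale that understates the change of dim genes. A probe set was tested if it had a value on all arrays and a mean of at least 101, and a gene was represented by its brightest tested probe set. Of the 50 Rab genes, 37 were tested, through 57 probe sets. A further 8 genes were below that mean, and 5 had values at date 2 alone, since both arrays of date 1 lacked values for the same 6307 probe sets. Genes that passed the filter are therefore not all Rab genes.

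Of the 37 tested Rab genes, 1 rose, 2 fell and 34 did not pass (limma, date as a block, threshold of 0.05 on the p-value adjusted by Benjamini-Hochberg). The gene that rose was Rab3b, a secretory vesicle Rab, and those that fell were Rab32, a Rab of lysosome-related organelles and mitochondria, and Rab2a, which acts between the endoplasmic reticulum and the Golgi. These 3 were 8.11% of the tested Rab genes, against 6.5% of all 6952 genes tested (3.01% higher and 3.5% lower), a share near the background. The median log2 change was 0.02 for Rab genes and 0.03 for all genes, and the median size of the change in either direction was 0.17 and 0.24. A fitted change of at least 0.5 in either direction was seen for 5 Rab genes (13.5%; 19.9% of all genes). The LGG arrays were both above both untreated arrays for 10 Rab genes and both below them for 10, with 26.2% and 22.3% of all genes in these classes. The sign was the same at both dates for 21 Rab genes (56.8%; 65.2% of all genes). Without date as a block 0 of the 37 passed by limma, with 6 at an unadjusted p under 0.05 (1064 of all 6952 genes). With the block, 8 of the 37 had an unadjusted p under 0.05 (20.3% of all genes). The fits with 1 array left out did not use the date. Leaving out LGG replicate 2, untreated replicate 1 or untreated replicate 2 also gave 0 calls, and leaving out LGG replicate 1 gave 1, Rab2a.

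**Figure D1:**
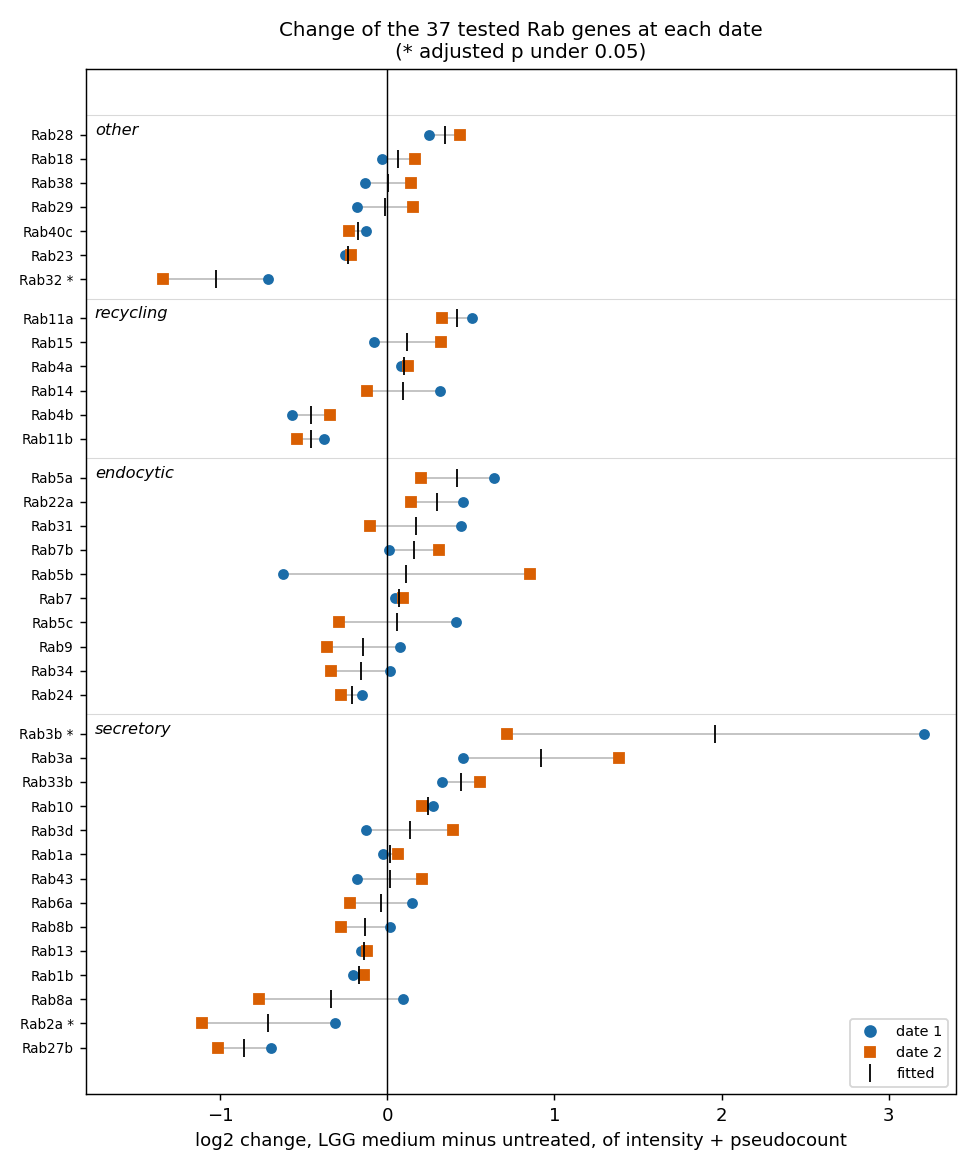
Log2 change (x axis, LGG medium minus untreated, of intensity + 25.2) of the 37 tested Rab genes (y axis), ordered within the 4 groups by the fitted change. Circles are date 1, squares date 2 and ticks the fitted change; asterisks mark the 3 genes with an adjusted p under 0.05. The fitted change is under 0.5 in size for 32 of the 37 genes, and Rab3b has the widest gap between the dates, at 3.21 and 0.72.

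Among the 14 secretory Rab genes tested, 1 rose, 1 fell and 12 did not pass, with a median log2 change of -0.01. The called share was 14.3%, against 6.5% of all genes, on too few genes to set the group apart. Rab3b, which acts in regulated exocytosis in secretory and epithelial cells, had an untreated intensity of 55.1 at date 1 and 413.7 at date 2. With LGG medium the intensities were 719 and 695.8. Both LGG arrays were thus above both untreated arrays and close to each other, while the untreated arrays lay far apart. The group means were 234 ± 254 and 707 ± 16.4 (SD, n = 2 arrays), a fitted log2 change of 1.96 ± 0.42 (SE; limma, adjusted p = 0.0131). The log2 change at date 1 was 3.21 and at date 2 it was 0.72. Without untreated replicate 1 it was 0.74 and without untreated replicate 2 it was 3.19, and without date as a block the limma call was lost (adjusted p = 0.197). The call was also lost with no filter (0.211) or no intensity trend (0.0611).

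Rab3a, the synaptic vesicle member of the same subfamily, read 144.2 and 106.3 in untreated cells at dates 1 and 2 and 206.9 and 318.1 with LGG medium. The groups did not overlap, and the difference was larger at date 2 (1.38) than at date 1 (0.45). The fitted log2 change was 0.92 ± 0.29 and did not pass (adjusted p = 0.0784). Rab3d, found on secretory granules of exocrine cells, had fitted log2 changes of 0.13, 0.38 and 0.42 in its 3 tested probe sets, none of which passed. The 2 probe sets of Rab3c with values on all arrays read between 2.6 and 46.2 and were not tested.

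Rab27b, which docks secretory granules and exosome-forming endosomes at the plasma membrane, read 411.7 and 554.6 untreated and 244.1 and 261.6 with LGG medium. Both LGG values were below both untreated values. The fitted log2 change of -0.86 ± 0.24 lay just outside the threshold (adjusted p = 0.0513). Its second probe set, below the filter, read 38.4 and 82.2 untreated and 24.8 and 17.7 with LGG medium. The 2 Rab27a probe sets with values on all arrays read 0.6 to 39.3, so Rab27a was not tested.

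In its brightest probe set Rab2a read 4063.8 and 4944.2 untreated and 3268.4 and 2276.8 with LGG medium. The arrays did not overlap, and the difference at date 2 (-1.11) was larger than that at date 1 (-0.31). The fitted log2 change was -0.71 ± 0.19 (adjusted p = 0.0389). It was -0.45 without LGG replicate 2, in a fit that, like all with 1 array left out, did not use the date. The next brightest probe set disagreed: it measured 3010.3 and 3044.8 untreated and 2955.7 and 3461.5 with LGG medium, a log2 change of 0.08 ± 0.16 (adjusted p = 0.841). The third tested probe set had a log2 change of -0.39 ± 0.25 (adjusted p = 0.427). At date 2 alone, another probe set read 2413 untreated and 1383.4 with LGG medium. The probe sets of Rab2a thus differed, and with the mean over its tested probe sets Rab2a did not pass. The call was also lost in the fit without the date (adjusted p = 0.167), with median scaling (0.114) or quantile normalization (0.0692), with a pseudocount of 1% of the trimmed mean in place of 5% (0.0564), a filter at 50% of it (0.0544), no filter (0.233) or no intensity trend (0.167). It held with a pseudocount of 10% (adjusted p = 0.0462), and of the fits with 1 array left out only in that without LGG replicate 1 (0.032).

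**Figure D2:**
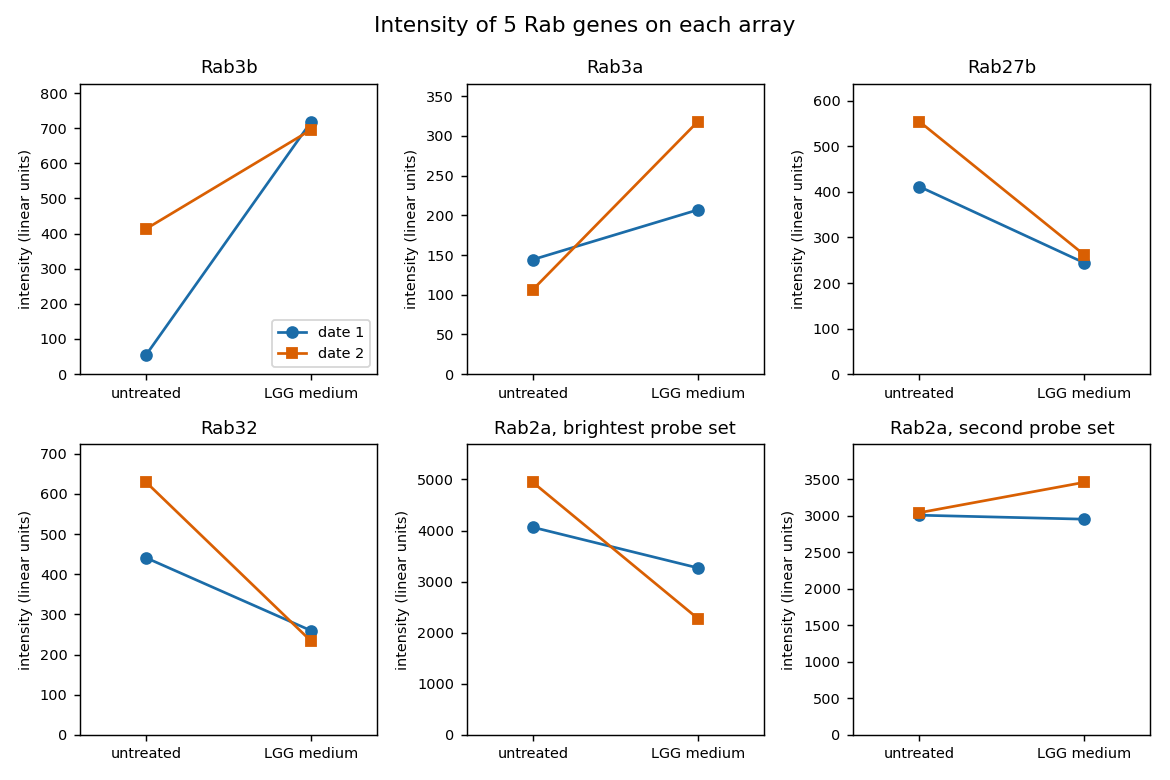
Linear intensity (y axes, each from 0) of Rab3b, Rab3a, Rab27b, Rab32 and the 2 brightest probe sets of Rab2a in untreated and LGG arrays, 1 line per date. The untreated values of Rab3b are 55.1 and 413.7 with LGG values near 700, and the second Rab2a probe set does not show the fall of the brightest.

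The other secretory Rab genes had fitted log2 changes between -0.34 and 0.44. Rab33b, a Golgi Rab that also binds autophagy factors, measured 771.5 and 851.8 untreated and 975.4 and 1262.7 with LGG medium, a log2 change of 0.44 (adjusted p = 0.255). Rab1a and Rab1b, which act between the endoplasmic reticulum and the Golgi, had changes of 0.02 and -0.17. The change of Rab6a, a Rab of the Golgi, was -0.04. Of the Rabs that carry cargo from the Golgi to the plasma membrane, Rab10 had a change of 0.24, Rab8b -0.13, Rab13 -0.14 and Rab8a -0.34. Other Rab10 probe sets, with values at date 2 alone, were lower with LGG medium. The change of Rab43, another Golgi Rab, was 0.01. Rab8a read 1419.1 and 2431.5 untreated but 1518.7 and 1418.6 with LGG medium, so the untreated array of date 2 stood apart.

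None of the 10 endocytic Rab genes tested passed by limma (6.5% of all genes did), and their median log2 change was 0.09. An unadjusted p under 0.05 was seen for 1 of them, against 20.3% of all genes. Among those whose sign held at both dates, Rab5a, which drives fusion of early endosomes, had the largest change. It measured 1530.9 and 1716.1 untreated and 2398.1 and 1975.6 with LGG medium. The groups did not overlap, but the log2 change of 0.42 ± 0.19 did not pass (adjusted p = 0.231). Its paralogs Rab5b and Rab5c had changes of opposite sign at the dates, -0.63 and 0.85 for Rab5b and 0.41 and -0.29 for Rab5c. Rab22a, which sorts cargo from early endosomes, measured 609.6 and 673.6 untreated and 842.9 and 746.3 with LGG medium, a change of 0.30 ± 0.22 (adjusted p = 0.497). Its other 2 probe sets gave 0.55 and 0.16. The late endosomal Rab7 had a change of 0.07 in its brightest probe set and -0.26 in the other. Rab7b, a related late endosomal Rab, measured 226.9 and 186.5 untreated and 228.9 and 236.9 with LGG medium (0.16). Rab24, linked to autophagy, measured 562.3 and 607.7 untreated and 504.6 and 497.9 with LGG medium (-0.21, adjusted p = 0.66). Rab31, Rab9 and Rab34 had fitted changes of 0.17, -0.14 and -0.16.

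None of the 6 recycling Rab genes tested passed by limma (6.5% of all genes did), and their median change was 0.10. An unadjusted p under 0.05 was seen for 2 of them, against 20.3% of all genes. The 2 were the paralogs Rab11a and Rab11b, and their differences had opposite signs. Rab11a, the main Rab of the recycling endosome, measured 1892.4 and 2034 untreated and 2695.7 and 2564 with LGG medium, a log2 change of 0.42 ± 0.17 (adjusted p = 0.191). Rab11b measured 1220.3 and 1037.8 untreated and 933.7 and 706.4 with LGG medium, a log2 change of -0.46 ± 0.21 (adjusted p = 0.233). Neither pair of groups overlapped, both signs held at both dates, and whether the paralogs differ from each other was not tested. Rab4b, of the fast recycling route, measured 623.3 and 649.2 untreated and 412.1 and 507.4 with LGG medium (-0.45 ± 0.23, adjusted p = 0.282). Its paralog Rab4a measured 536.8 and 529.1 untreated and 568.6 and 578.8 with LGG medium (0.10 ± 0.23, adjusted p = 0.856). Rab14 and Rab15 had changes of 0.10 and 0.12, with opposite signs at the dates. The epithelial Rabs Rab17 and Rab25, which serve apical recycling in polarised cells, read 16.2 to 95.7 and 18.6 to 73.7 and were not tested.

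Of the 7 other Rab genes tested, 1 fell and 6 did not pass, with a median log2 change of -0.01. The called share was 14.3%, against 6.5% of all genes, and rests on 1 gene. Rab32, which directs cargo to lysosome-related organelles and anchors protein kinase A at mitochondria, measured 440.7 and 628.9 untreated and 259.2 and 232.9 with LGG medium. Both LGG arrays were below both untreated arrays. The means were 535 ± 133 and 246 ± 18.6 (SD, n = 2) and the fitted log2 change was -1.03 ± 0.25 (adjusted p = 0.0275), with -0.71 at date 1 and -1.34 at date 2. The limma call was lost in the fit without the date (adjusted p = 0.108). With the date kept, it was lost under median scaling (0.0522), with no intensity trend (0.053) and with no filter (0.172). It held with a pseudocount of 1% (0.0374) or 10% (0.0323), a filter at 50% (0.0351) and quantile normalization (0.0363). The fits with 1 array left out did not use the date. With 1 array left out the change lay between -1.27 and -0.78, lowest without untreated replicate 1 and highest without untreated replicate 2, and its adjusted p was 0.053 to 0.642. Rab38, its closest relative, had a change of 0.00 with values of 136.5 and 122.8 untreated and 122.5 and 137.8 with LGG medium. The change of Rab28, linked to photoreceptor cilia, was 0.35 (787.7 and 884.5 untreated, 943 and 1207.2 with LGG medium; adjusted p = 0.392). For Rab23, an inhibitor of Hedgehog signalling, it was -0.24 (588.8 and 492.7 untreated, 490.1 and 419.5 with LGG medium). For Rab40c, part of a ubiquitin ligase, it was -0.18 (927.3 and 969.3 untreated, 847.8 and 823.3 with LGG medium). Rab18, a Rab of the endoplasmic reticulum and lipid droplets, and Rab29 had changes of 0.07 and -0.01.

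The promoters of Rab3b and Rab32, which passed, and of Rab3a, from the same subfamily as Rab3b and with the next largest positive change, are shown as examples. They were chosen with the values known, and those of Rab2a, which also passed, and Rab27b are not shown. Each run is the 250 bases before an annotated start, from RefSeq on GRCm38.p6, 5′ to 3′ in the direction of the gene. The windows lie at chr4:108878820-108879069 (plus strand) for Rab3b, chr8:70754453-70754702 (plus strand) and chr8:70754852-70755101 (plus strand) for the 2 starts of Rab3a, and chr10:10558208-10558457 (minus strand) for Rab32. Capitals mark matches to 6 motifs.
Rab3b: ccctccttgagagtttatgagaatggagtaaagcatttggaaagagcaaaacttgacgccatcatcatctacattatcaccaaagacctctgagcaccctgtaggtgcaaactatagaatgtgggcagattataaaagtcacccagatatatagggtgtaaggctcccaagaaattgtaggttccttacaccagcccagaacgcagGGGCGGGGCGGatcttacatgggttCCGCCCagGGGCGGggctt
Rab3a, upstream start: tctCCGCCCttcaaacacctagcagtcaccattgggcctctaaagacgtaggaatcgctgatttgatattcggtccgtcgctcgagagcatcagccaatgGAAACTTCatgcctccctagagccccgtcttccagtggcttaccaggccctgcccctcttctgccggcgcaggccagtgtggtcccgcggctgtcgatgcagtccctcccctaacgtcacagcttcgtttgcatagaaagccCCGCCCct
Rab3a, downstream start: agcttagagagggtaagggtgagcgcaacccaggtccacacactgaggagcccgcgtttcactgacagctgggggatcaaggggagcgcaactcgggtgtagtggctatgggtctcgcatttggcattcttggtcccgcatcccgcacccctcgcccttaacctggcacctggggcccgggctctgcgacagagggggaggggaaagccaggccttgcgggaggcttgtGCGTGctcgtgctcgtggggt
Rab32: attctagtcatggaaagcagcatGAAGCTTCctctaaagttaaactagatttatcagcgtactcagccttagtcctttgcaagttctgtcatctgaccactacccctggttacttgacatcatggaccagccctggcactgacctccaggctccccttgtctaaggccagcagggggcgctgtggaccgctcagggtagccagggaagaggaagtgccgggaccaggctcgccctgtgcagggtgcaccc
The motifs, searched on both strands, were the heat shock element GAANNTTC, the antioxidant response element TGACNNNGC, the E-box CACGTG, the AP-1 site TGANTCA, the xenobiotic response element core GCGTG and the GC box GGGCGG. The Rab3b window held 4 GC boxes, of which 2 overlap, and no other match. The upstream start of Rab3a had 1 heat shock element and 2 GC boxes, the downstream start 1 xenobiotic element core, and Rab32 1 heat shock element and no other match. A heat shock element was found in 6.69% of the 32851 windows of the table and in 3 of the 54 windows of 42 Rab genes. The antioxidant element was found in 10.2% and 7 windows, the E-box in 6.02% and 5, the AP-1 site in 6.75% and 2, and the xenobiotic core in 28.2% and 19. GC boxes were in 36 of the 54 Rab windows (66.7%) and 32.7% of all windows, and the median GC content was 60.2% and 52.4%. A match is a description of the letters and not a bound site.

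Several tested probe sets were available for 15 Rab genes, and in 6 of them (Rab14, Rab18, Rab2a, Rab4a, Rab6a and Rab7) the fitted changes had opposite signs. Apart from Rab2a, no tested probe set of these 15 genes passed. The span was widest for Rab2a, from -0.71 to 0.08. In Rab23 (-0.47 and -0.24), Rab40c (-0.58 and -0.18), Rab3d and Rab22a all tested probe sets had the same sign. Some probe sets can share sequence with relatives or read only some transcript forms, and their part in these gaps was not tested.

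**Figure D3:**
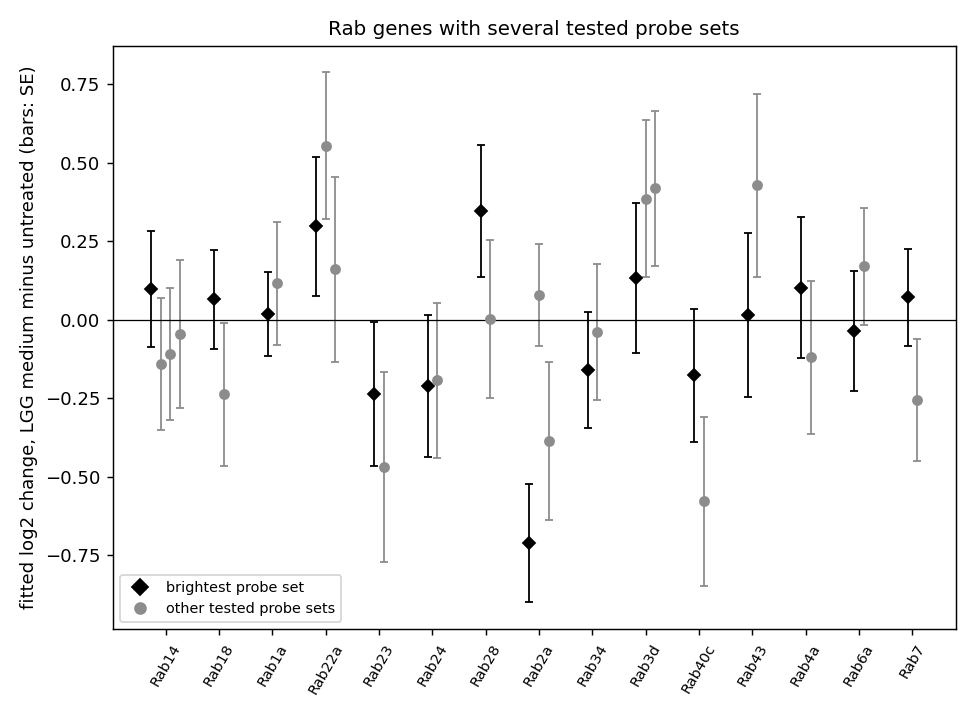
Fitted log2 change (y axis, LGG medium minus untreated, bars are the SE of limma) for the 15 Rab genes with several tested probe sets (x axis). Diamonds are the brightest probe set and circles the others; for Rab2a the brightest lies at -0.71 and the second at 0.08.

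At date 2, 22 further Rab probe sets had a value, with 1 array per group and so no test. Of the 14 with a mean of at least 101, 7 were higher and 7 lower with LGG medium, 5 were at least 1.5-fold apart (26.2% of all such probe sets were) and 0 were 2-fold apart. Rab6b, a Golgi Rab best known from neurons, was 1.77 times as high with LGG medium (298.9 against 168.7). Rab2b, the paralog of Rab2a, read 199.1, 220.3 and 136.9 untreated and 176.5, 126.9 and 165.9 with LGG medium in 3 probe sets. For Rab40b the values were 488.5 untreated and 304.8 with LGG medium. Rab10 read 1394.3 and 370.9 untreated and 966.6 and 230.3 with LGG medium in its 2 probe sets of date 2 alone. Both were lower, while the Rab10 probe set tested over both dates had a change of 0.24 (0.21 at date 2). Rab21, which sorts integrins, read 1312 and 1382.5, and Rab12, which acts on recycling endosomes, 733.1 and 837. Rab20 was dim, at 43.6 and 55.6. Of the other untested genes, Rab30 read 37.4 to 72.8, Rab33a 18.8 to 69.1 and Rab37 17.3 to 56.7.

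The same members also differed between the dates. In the untreated arrays Rab3b was 2.45 higher at date 2 on the log2 scale and Rab8a 0.77 higher, against differences of -0.05 and -0.10 in the LGG arrays. For Rab5b the log2 difference of date 2 from date 1 was -0.59 in the untreated arrays and 0.88 in the LGG arrays.

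Genes that act on Rab proteins or are their effectors were counted from 4 lists with 131 members, of which 83 were found by symbol on the array. Of these 83, 52 were tested and 31 were not. Among the 52 tested, 2 rose, 2 fell and 48 did not pass, with a median change of 0.08. The called share was 7.69%, against 6.5% of all genes. It includes Sytl1, which fell and reached the filter only through its untreated arrays (mean 259.6, against 23.8 with LGG medium). Rin2, which was not called, was tested in the same way (173.9 and 77.1). No difference from the background is drawn from this share. Of 7 genes of prenylation and GDP dissociation, 1 rose and 6 did not pass (median 0.16), a called share of 14.3% that rests on 1 gene. Rabac1, a membrane protein that frees Rabs from the dissociation inhibitor, measured 783.1 and 807.7 untreated and 1074.6 and 1951 with LGG medium. The groups did not overlap, and its log2 change was 0.85 ± 0.23 (adjusted p = 0.0445). In fits that also drop the date, it was 0.42 without LGG replicate 2 and 1.27 without LGG replicate 1. On all arrays without date as a block its adjusted p by limma was 0.203. With the date kept, the call was lost with a pseudocount of 1% (0.0604) or 10% (0.0511), a filter at 50% (0.0564) or no filter (0.201). It was lost too with median scaling (0.0708), quantile normalization (0.0585) or no intensity trend (0.109). It held with the mean over probe sets (0.000546). The geranylgeranyl transferase subunits Rabggtb (0.51, adjusted p = 0.165) and Rabggta (0.42, adjusted p = 0.366) did not pass.

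Of 13 exchange factor genes and 14 genes of GTPase-activating proteins, none passed by limma (medians 0.05 and 0.15). An unadjusted p under 0.05 was seen for 2 and 2 of them, against 20.3% of all genes. Rin2, an exchange factor for Rab5, measured 170.5 and 177.3 untreated and 84.4 and 69.8 with LGG medium, a log2 change of -0.96 ± 0.28 (adjusted p = 0.0573). Its LGG values were below the filter of 101, so it was tested through its untreated values. Sbf2 had a change of 0.68 (adjusted p = 0.203). Tbc1d14, which acts on the recycling endosome in autophagy, had a change of 0.60 (adjusted p = 0.115) and Rabgap1 -0.53 (adjusted p = 0.161).

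Of 18 effector genes 1 rose, 2 fell and 15 did not pass (median 0.03). The called share was 16.7%, against 6.5% of all genes, on too few genes to set the list apart. Sytl1, a synaptotagmin-like protein that binds Rab27 on secretory vesicles, measured 365.5 and 153.7 untreated and 35.9 and 11.7 with LGG medium, a log2 change of -2.48 ± 0.29 (adjusted p = 0.000446). It reached the filter of 101 only through the untreated arrays, and the LGG values lie near the pseudocount of 25.2, so the change moves with it, to -3.21 with a pseudocount of 1% and -1.99 with 10%. The fits with 1 array left out did not use the date. Fitted on all arrays without the date, Sytl1 also passed by limma (adjusted p = 0.0452). Its call was lost with no filter (adjusted p = 0.0818), and without untreated replicate 1 (-1.91, adjusted p = 0.371) or untreated replicate 2 (-3.04, adjusted p = 0.363). Exoc4, a subunit of the exocyst that tethers secretory vesicles, measured 3343.8 and 3115.3 untreated and 2187.9 and 1890.8 with LGG medium (-0.66 ± 0.17, adjusted p = 0.0324). A second probe set of Exoc4 also passed (adjusted p = 0.0165), and the remaining tested one did not (adjusted p = 0.146). At date 2 alone, another Exoc4 probe set read 561.9 untreated and 518.6 with LGG medium, and a dim one 86.4 and 91.2. Rilpl2, which binds the Rab8 subfamily and shapes primary cilia, rose from 1088.4 and 1048.6 to 1975.9 and 2101.9 (0.92 ± 0.19, adjusted p = 0.0125). Fitted by limma without the date, Exoc4 and Rilpl2 did not pass (adjusted p = 0.127 and 0.065). Both calls were also lost with no filter (0.154 and 0.109) or no intensity trend (0.132 and 0.0538), and that of Exoc4 with median scaling (0.076). Both held with the other pseudocounts, a filter at 50% and quantile normalization, and Rilpl2 also with median scaling. With 1 array left out, in fits that also drop the date, the change of Exoc4 lay between -0.76 and -0.56. That of Rilpl2 lay between 0.87 and 0.96, and such fits leave 1 array in a group. Bicd2, a dynein adaptor for Rab6, read 593.8 and 787.4 untreated and 1720.9 and 997.2 with LGG medium (0.91, adjusted p = 0.055), and Rabep1, an effector of Rab5, 0.51 (adjusted p = 0.307).

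**Figure D4:**
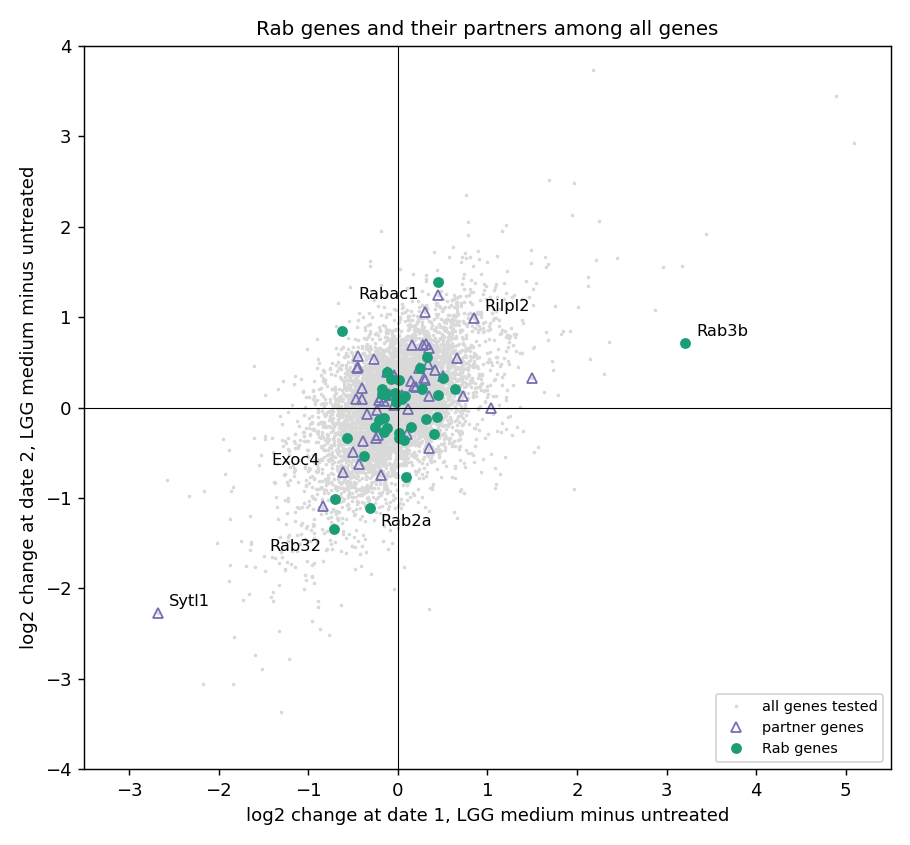
Log2 change at date 2 (y axis) against date 1 (x axis) for the 37 Rab genes (filled circles), 52 partner genes (open triangles) and all 6952 genes tested (grey). The 7 named genes are those that passed; Sytl1 at -2.68 and -2.28 and Rab3b at 3.21 and 0.72 lie farthest from the origin among them.

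The epithelial label of the cells was set against marker genes. Of all genes tested, 6.5% passed (3.01% higher and 3.5% lower), and the marker lists are too short to set a cell type apart by its calls. Of 11 epithelial markers with values, 4 were tested (Krt8, Krt18, Krt19 and Tjp1) and none passed, while Cdh1 read 8.7 to 41.8, Epcam 6 to 9 and Vil1 1.7 to 10.5, below the filter. Cldn3, Cldn4, Cldn7 and Ocln were also below it. The summed intensity of the 11 epithelial markers was 3971.8 and 5062.2 untreated and 4508.2 and 4466.6 with LGG medium. Of 8 mesenchymal markers with values, 5 were tested and 1, S100a4, fell, and their summed intensity was 27018.1 and 21524.3 untreated and 21840.7 and 19169.5 with LGG medium. Among them Vim read 9532 to 12488.5 and Col1a1 6568.6 to 10156.3, while Fap, Pdgfrb and Thy1 were below the filter. The markers were thus mixed and do not settle the epithelial label. Of 6 immune markers 2 were tested and Cd68 rose, from 146 and 101.2 to 274.1 and 289, with sums of 479.5 to 630.1 untreated and 608.8 to 699.8 with LGG medium. None of the other 5 immune markers was higher on both LGG arrays than on both untreated arrays. Csf1r, the other one tested, read 278 and 182.1 untreated and 182.4 and 230.5 with LGG medium and did not pass. Lyz2, below the filter, read 116.7 and 146.9 untreated and 98 and 14.7 with LGG medium. Ptprc, the defining leukocyte marker, read 15.4 to 37.2 over all arrays, and Cd3e 20.2 to 25.1 except on 1 LGG array (88.7). Of 4 endothelial markers Kdr was tested and rose, from 136.2 and 128.9 to 396.5 and 329.2, with sums of 309 to 398.3 untreated and 452.2 to 487 with LGG medium. The other 3 were below the filter, and none was higher on both LGG arrays than on both untreated arrays. Tek read 149.4 and 96.1 untreated and 36.8 and 51.4 with LGG medium, Pecam1 48 and 34.1 against 12.1 and 21.3, and Cdh5 64.7 and 49.9 against 41.6 and 50.3. Their part in the Rab values was not tested, and in bulk RNA fewer cells of a type and less RNA per cell cannot be told apart.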

How the data were processed

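Total RNA was extracted by Trizol and cleaned on a Qiagen kit, per the labels. The table deposited by the authors holds a linear intensity per probe set and array; array software, scaling, filters and genome build are not given in the sources used here. Scanner images and detection calls were not used here. Arrays were grouped by their titles, whose 2 dates pair them. As a check, the date differences of the untreated and LGG arrays correlated at 0.27 across probe sets.

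Values were used as deposited, since trimmed means (2% off each end) were close. The pseudocount was 5% and the filter 20% of their geometric mean, 504.9, and 64 control probe sets were set aside. Fits used limma 3.58.1 in R 4.3.3 (terms for group and date, moderated variances that follow intensity, two-sided, adjusted over 10333 probe sets), with 1 residual and 12.5 prior degrees of freedom, so calls rest mostly on variance shared across genes. On simulated data the fit returned known changes without bias, but the prior was often estimated too high, and then more calls were false than the nominal 5%. With 2 arrays a group, the smallest two-sided p of an exact permutation test that ignores the dates is 0.333. Exchange within dates allows fewer arrangements, so its smallest p is larger. Symbols came from the platform annotation, and all 50 matched the RefSeq table of GRCm38.p6. Figures used matplotlib 3.10.9.

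Named in full were the Rab genes that passed, up to 4 per group whose sign held at both dates, by size of change, and, of partner lists, those that passed and up to 2 others; any other gene was chosen after its values were seen. The members, gene lists and motifs were chosen with earlier results of these data known. Alternatives were no block, other pseudocounts, filters and scalings, no trend, the mean over probe sets and each array left out.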

Additional observations from a re-analysis of the deposited data

How the results depend on the processing

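The 16 Rab genes described in full had the same sign at both dates, and in each the groups did not overlap. Leaving out an array could therefore not change their sign, and the block, filter and trend do not alter the fitted change of a probe set. A kept sign was thus largely set by the choice of genes and lends them no support. Of these 16 genes, 15 kept their sign in each alternative tried that could give a value. The exception was Rab4a, at -0.0093 with the mean over its tested probe sets, whose changes were -0.12 and 0.10; per-gene values under that mean were added after seeing the data. Counts of called genes moved more, and the cause was not tested. Without date as a block (the pairing of the arrays) limma called 61 of all genes, 0 Rab genes, also 0 of the 16 (6 of 37 at an unadjusted p under 0.05), and 1 partner gene. With no filter on dim probe sets it called 0 genes (1525 of 10782 at an unadjusted p under 0.05), 0 of 45 Rab genes, the 16 included (10 unadjusted), and 0 of 71 partner genes (11 unadjusted). Without an intensity trend the counts were 244, 0 Rab genes, also 0 of the 16 (5 unadjusted), and 2 partner genes. Median scaling left 1 Rab gene, also 1 of the 16, and 2 partner genes, and a filter at 50% left 2 partner genes. The mean over probe sets gave 948 genes, and 4 Rab genes: Rab3b, Rab32, Rab3a and Rab27b. With 1 array left out, in fits without the block, counts ran from 0 to 428 genes, 0 to 1 Rab genes, 0 to 1 of the 16, and 0 to 3 partner genes; among Rab genes 1 to 8 had an unadjusted p under 0.05. No probe set's background is known, so a bound for dim Rab genes cannot be given.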
